A study of Mus musculus with 29 samples.

Results

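The spindle checkpoint core, as taken here, is a list of 10 mouse genes: Mad2l1, Mad1l1, Mad2l1bp, Bub1, Bub1b, Bub3, Ttk, Cdc20, Trip13 and Zw10. All probe sets that the array annotation assigns to these genes alone were taken, which gave 26 of 45101 probe sets. Of these, 17 passed a filter on low signals, as did 31932 in the whole table, and all 10 genes were among the 14602 genes tested. The signals came from 29 arrays: 6 recurrent lung tumours of TI-KM mice, 14 primary tumours of TI-KM mice, 8 primary tumours of TI-K mice and 1 normal lung. TI-K mice carried CCSP-rtTA, a reverse tetracycline transactivator under the promoter of an airway secretory protein, and a tumour-driving transgene under a tetracycline-responsive element (TRE). TI-KM mice carried both of these and TRE-Mad2 besides, and the normal lung came from an animal with CCSP-rtTA alone, so every group shared the transactivator. All were on a mixed 129/Bl6 background, the tumours are labelled adenocarcinoma or adenoma, and the labels used here give no ages and no doxycycline status. The labels do not say that the arrays of a group came from separate animals, and TI-KM primaries 1 and 2 share the title number 76, so p-values measure only the spread between these samples.

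The spindle checkpoint delays the separation of sister chromatids until each kinetochore is attached to the spindle. At unattached kinetochores the kinase Ttk starts a cascade that recruits Bub1, Bub3 and Bub1b and then the complex of Mad1l1 with Mad2l1, and the Mad2 so activated joins Bub1b and Bub3 in holding Cdc20 away from the anaphase-promoting complex. Mad2l1bp and Trip13 take this inhibitor apart again, and an excess of Mad2 is known to cause chromosome instability in mice.

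In bulk tumour RNA, fewer cells of a type and less RNA per cell cannot be told apart. Unlabelled sets of arrays were defined after the data were seen. Recurrences 1 to 4 and TI-KM primaries 1 to 6, 10 arrays in all, are called high-18S here: their signal for the 18S ribosomal control was 12665 to 24001. The 5 TI-K primaries with title numbers above 5000 formed a set of their own (18S signal 7616 to 8523), and the remaining 13 tumours were 2 recurrences, 8 TI-KM primaries and 3 TI-K primaries (5939 to 10857). The normal lung stood at 12569. No TI-K primary was in the high-18S set, so differences from TI-K primaries are given below over all arrays and with the sets as a block. The set of high title numbers held TI-K primaries only. With the block, differences from TI-K primaries therefore rest on the 3 TI-K primaries among the remaining tumours. The part of this smaller number in calls lost with the block was not tested. The log2 ratio of 3′ to 5′ control signals averaged 1.32 ± 0.45 in recurrences, 2.16 ± 0.67 in TI-KM primaries and 2.16 ± 0.41 in TI-K primaries (SD, n = 6, 14 and 8), and it was 2.59 in the normal lung. Of the lung epithelial markers listed, 9 of 10 were measured, and their summed signal had a median of 123159 in recurrences, 127717 in TI-KM primaries, 124200 in TI-K primaries and 49616 in the normal lung. The 7 club and ciliated cell markers had summed medians of 55305 in recurrences, 38003 in TI-KM primaries, 16762 in TI-K primaries and 78638 in the normal lung, with ranges of 13659 to 81740, 6177 to 66913 and 9639 to 47367 in the tumour groups. Of these 7 markers, 3 were called higher in recurrences than in TI-K primaries and 1 in TI-KM than in TI-K primaries. Of all genes, 12.2% and 5.5% were called higher in these comparisons. With the sets as a block 0 of the 7 were called in either comparison, against 0.0959% and 0% of all genes. Within the remaining tumours 0 of the 7 were called as well, against 0.13% and 0% of all genes.

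The promoters of Mad2l1 and of the members that varied most closely with it are shown first, because these genes moved together from tumour to tumour as described further on. The RefSeq promoter windows of the GRCm38.p6 mouse genome run from 250 bases before to 50 bases after the annotated start. That of Mad2l1 is chr6:66534971-66535270 on the plus strand, and that of Trip13 is chr13:73937718-73938017 on the minus strand. The windows of Bub1 and Cdc20 are chr2:127831810-127832109 and chr4:118437294-118437593, both on the minus strand, and that of Ttk is chr9:83834439-83834738 on the plus strand. Each is written 5′ to 3′ on the gene's own strand, and capitals mark matches to the CCAAT word or to a cell cycle homology region (CHR) word, on either strand.
Mad2l1: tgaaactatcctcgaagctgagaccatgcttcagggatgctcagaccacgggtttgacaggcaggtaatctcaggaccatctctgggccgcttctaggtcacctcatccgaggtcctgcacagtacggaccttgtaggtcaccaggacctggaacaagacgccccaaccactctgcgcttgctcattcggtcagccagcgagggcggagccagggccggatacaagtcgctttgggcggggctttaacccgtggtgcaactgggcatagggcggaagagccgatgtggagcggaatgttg
Trip13: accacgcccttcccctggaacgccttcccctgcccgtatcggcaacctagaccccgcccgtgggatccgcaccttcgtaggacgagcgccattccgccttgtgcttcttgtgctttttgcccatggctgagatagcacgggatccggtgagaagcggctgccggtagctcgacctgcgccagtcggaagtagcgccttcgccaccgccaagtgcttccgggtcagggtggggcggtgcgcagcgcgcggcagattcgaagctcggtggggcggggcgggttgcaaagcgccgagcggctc
Bub1: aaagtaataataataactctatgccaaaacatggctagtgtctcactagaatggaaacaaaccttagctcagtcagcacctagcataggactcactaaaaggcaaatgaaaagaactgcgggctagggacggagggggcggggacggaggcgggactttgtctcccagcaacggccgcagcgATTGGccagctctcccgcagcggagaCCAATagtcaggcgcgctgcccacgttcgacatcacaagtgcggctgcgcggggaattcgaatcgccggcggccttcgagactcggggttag
Cdc20: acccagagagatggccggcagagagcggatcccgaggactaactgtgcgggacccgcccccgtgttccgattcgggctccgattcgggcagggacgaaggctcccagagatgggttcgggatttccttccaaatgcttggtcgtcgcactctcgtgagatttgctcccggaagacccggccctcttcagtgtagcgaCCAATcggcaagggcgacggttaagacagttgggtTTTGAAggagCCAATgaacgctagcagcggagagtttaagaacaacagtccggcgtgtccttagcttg
Ttk: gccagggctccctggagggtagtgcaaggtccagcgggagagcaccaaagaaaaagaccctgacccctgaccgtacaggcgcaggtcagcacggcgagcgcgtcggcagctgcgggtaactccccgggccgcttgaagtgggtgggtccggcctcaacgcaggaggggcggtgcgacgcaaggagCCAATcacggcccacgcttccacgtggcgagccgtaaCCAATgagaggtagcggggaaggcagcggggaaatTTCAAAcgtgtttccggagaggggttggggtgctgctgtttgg
The words searched were CCAAT, the CHR words TTTGAA and TTTAAA, and the E2F words TTTCCCGC, TTTCGCGC, TTTGCCGC and TTTGGCGC, and no marked matches overlap. The windows of Bub1, Cdc20 and Ttk each hold CCAAT 2 times, and those of Cdc20 and Ttk also hold a CHR word, 18 bases before the start in Cdc20 (-18) and 8 bases after it in Ttk. The windows of Mad2l1 and Trip13 hold none of the words. Over all 10 members, which have 12 windows, 5 genes had a CCAAT word, 4 of them at least 2 times (Bub1, Bub3, Ttk and Cdc20), 5 had a CHR word (Bub1b, Bub3, Ttk, Cdc20 and Zw10), and none had an E2F word. Of all 32851 mouse promoter windows of this length, 37.4% hold CCAAT, 11.7% hold it at least 2 times, 27.6% hold a CHR word and 2.26% hold an E2F word. These matches describe the letters in the windows and no more.

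Mad2l1 encodes Mad2, the protein that the TRE-Mad2 transgene adds, and it was read by a single probe set (1422460_at, chromosome 6, 66535221 to 66541107). Whether this probe set also reads the transgene's transcript was not tested. Its MAS5 signal, a background-corrected intensity on a linear scale, ran from 437 to 1845 with a median of 611 in the 6 recurrences. It ran from 492 to 1271 with a median of 730 in the 14 TI-KM primaries, and from 573 to 1478 with a median of 871 in the 8 TI-K primaries. The normal lung had 340, below every tumour, while the tumour groups overlapped throughout. Recurrences 1 and 5 were high, at 1845 and 1247, and the other 4 recurrences lay between 437 and 611.

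Mad2l1 did not pass the test in any comparison of tumour groups, and its values in tumours that carried TRE-Mad2 were, on average, not above those of TI-K primaries. On the log2(signal + 20) scale, TI-KM primaries minus TI-K primaries gave -0.29 ± 0.22 (SE; limma, adjusted p = 0.399), with a 95% interval from -0.73 to 0.15. Recurrences minus TI-KM primaries gave 0.04 ± 0.24 (limma, adjusted p = 0.961; interval -0.44 to 0.52), and recurrences minus TI-K primaries gave -0.25 ± 0.27 (limma, adjusted p = 0.523). A fit blocked by set gave -0.38, 0.10 and -0.28 for the same differences. TI-K primaries minus the normal lung gave 1.35 ± 0.53 (limma, adjusted p = 0.0891), the 8 TI-K primaries all lying above the 1 normal array. With the 13 remaining tumours and the normal lung alone that difference was 1.55 and passed the threshold (limma, adjusted p = 0.0289). Relative to the mean log2 signal of the other 9 members, Mad2l1 had a median of 0.95 in recurrences, 0.88 in TI-KM primaries, 0.79 in TI-K primaries and 1.10 in the normal lung, with ranges in the tumour groups of 0.56 to 1.41, 0.51 to 1.52 and 0.37 to 1.40.

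**Figure D1:**
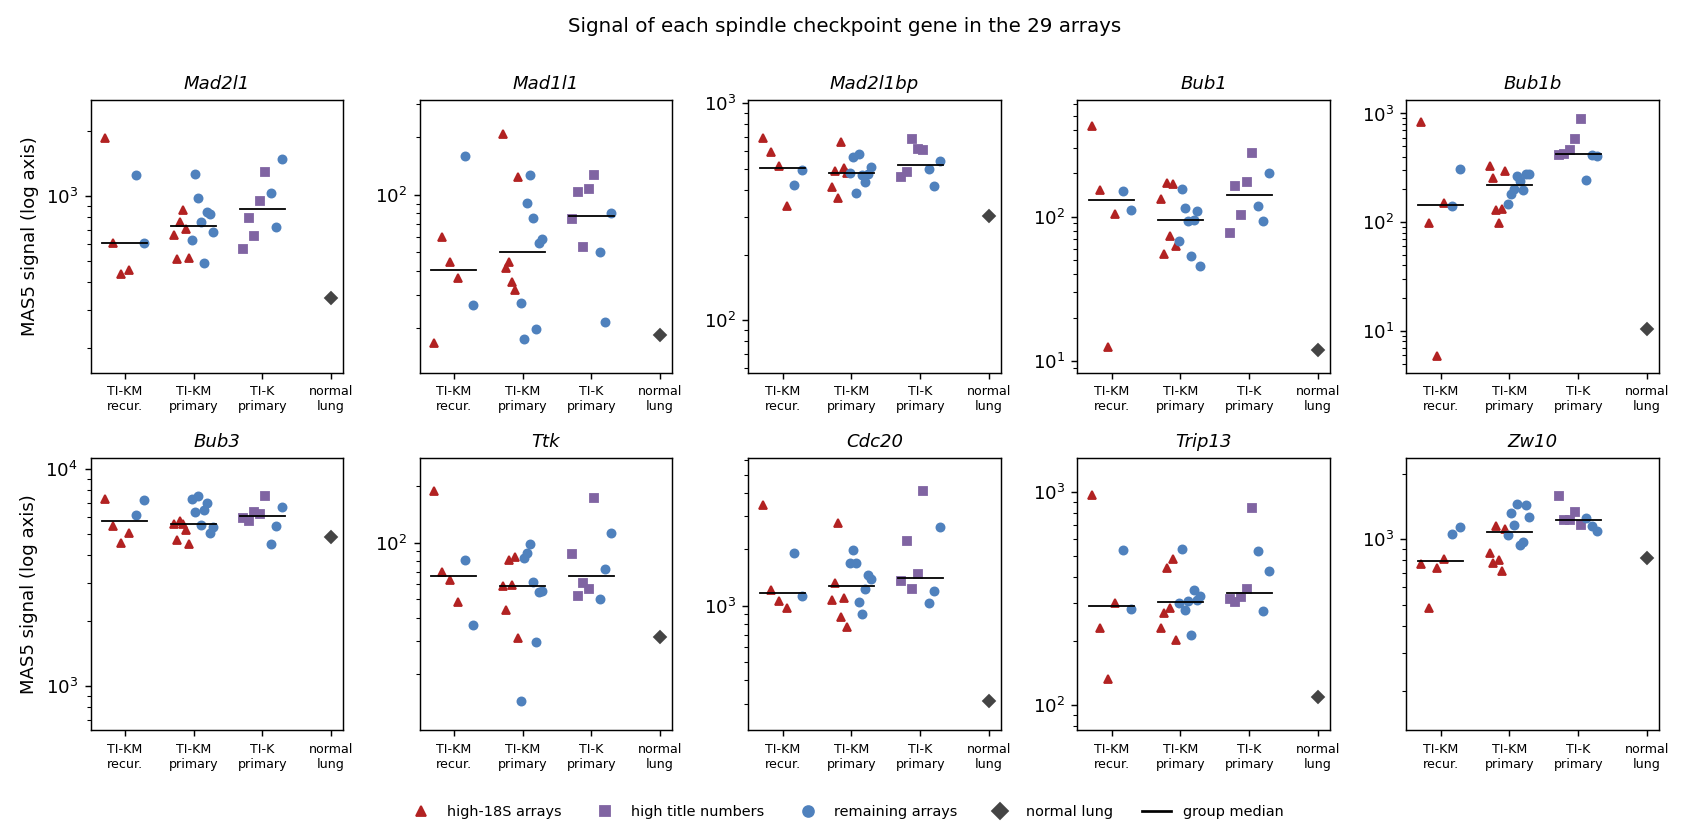
MAS5 signal (vertical log axis) of the probe set that represents each of the 10 genes, 1 point per array, with TI-KM recurrences, TI-KM primaries, TI-K primaries and normal lung from left to right. Marker shapes give the sets of arrays and lines the group medians. Mad2l1 in the tumours spans 437 to 1845 with no separation of the tumour groups, and the normal lung sits at 340.

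Among the genes that act at the kinetochore, Mad1l1 and Ttk gave weak signals, close to the offset of 20 in some arrays. Mad1l1, which anchors Mad2 at kinetochores (chromosome 5), had signals of 16.7 to 159 in recurrences (median 40.6), 17.5 to 208 in TI-KM primaries (50.3), 21.4 to 127 in TI-K primaries (77.4) and 18.5 in the normal lung. These weak signals overlapped between all tumour groups, and 1 recurrence, 2 TI-KM primaries and the normal lung were below that offset, which was added before the log2. Ttk, the kinase that starts checkpoint signalling (chromosome 9), had 36.5 to 188 in recurrences (median 66.5), 14.4 to 98.8 in TI-KM primaries (59.1), 50 to 172 in TI-K primaries (66.8) and 31.3 in the normal lung. Neither gene passed the test in any comparison, and Ttk gave -0.35 ± 0.24 for TI-KM minus TI-K primaries (limma, adjusted p = 0.355).

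Bub1, the kinase and scaffold at the kinetochore (chromosome 2), had signals of 12.6 to 427 in recurrences (median 131), 45.9 to 170 in TI-KM primaries (94.8), 77.5 to 276 in TI-K primaries (142) and 11.9 in the normal lung. Every tumour lay above the normal array, recurrence 3 only just so at 12.6. Bub1 was called higher in TI-K primaries than in the normal lung (log2 change 2.33 ± 0.74, 5.02-fold; limma, adjusted p = 0.0312). The same difference was 1.83 in TI-KM primaries and 2.12 in recurrences, with adjusted p by limma of 0.0872 and 0.0608. Here too the normal array, at 11.9, was under the offset of 20.

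Bub1b encodes BubR1, the subunit of the inhibitor that binds the anaphase-promoting complex (chromosome 2, 118598202 to 118641592). It varied more between groups than any other member by fitted log2 change over all arrays. Its signal ran from 5.92 to 831 with a median of 145 in recurrences, from 98.6 to 330 with a median of 222 in TI-KM primaries, and from 246 to 881 with a median of 420 in TI-K primaries, against 10.4 in the normal lung. Of the 6 recurrences, 4 lay below all TI-K primaries, and of the 14 TI-KM primaries, 8 did. Bub1b fell in recurrences relative to TI-K primaries by 1.49 on the log2 scale (SE 0.44, 2.80-fold lower; limma, adjusted p = 0.0192). TI-KM minus TI-K primaries gave -1.07 ± 0.36 (limma, adjusted p = 0.0568). The blocked fit gave differences of -0.90 for recurrences (limma, adjusted p = 0.620) and -0.56 for TI-KM primaries. Within the remaining arrays the values were -0.68 for 2 recurrences and -0.61 for 8 TI-KM primaries against 3 TI-K primaries, and neither passed the test (limma, adjusted p = 0.439 and 0.622). Leaving out recurrence 3, the array at 5.92, gave -0.95 for recurrences minus TI-K primaries (limma, adjusted p = 0.0686), and leaving out recurrence 2 gave -1.38 (limma, adjusted p = 0.0503). These values are of probe set 1447363_s_at. The other Bub1b probe set that passed the filter, 1416961_at, ran from 48.2 to 573 in recurrences, with 22.5 in the normal lung. With probe sets marked _x_at or _s_at left out, recurrences minus TI-K primaries gave -0.96 for Bub1b (limma, adjusted p = 0.0518). Against the normal lung Bub1b was called higher in TI-K primaries (3.96 ± 0.85, 15.5-fold; limma, adjusted p = 0.0016) and in TI-KM primaries (2.89; limma, adjusted p = 0.0163), and recurrences gave 2.47 (limma, adjusted p = 0.0593). Since the normal array, at 10.4, was under the offset of 20, these sizes depend on that offset.

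Bub3, which carries Bub1 and BubR1 to the kinetochore (chromosome 7), had the smallest fitted difference of all members in each comparison of tumour groups. Its signal ran from 4580 to 7289 in recurrences (median 5787), from 4527 to 7513 in TI-KM primaries (5605) and from 4523 to 7512 in TI-K primaries (6087), and it was 4885 in the normal lung. The ranges nearly coincided, and differences between tumour groups lay between -0.05 and 0.02 on the log2 scale with no call.

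Zw10, a subunit of the complex that brings dynein and Mad1 to kinetochores and that also serves membrane traffic (chromosome 9, 49055576 to 49078775), had signals of 484 to 1133 in recurrences (median 790). TI-KM primaries had 717 to 1447 (median 1079), TI-K primaries 1088 to 1581 (median 1221) and the normal lung 820. Of the 6 recurrences, 5 lay below all TI-K primaries. Zw10 fell in recurrences relative to TI-K primaries by 0.62 on the log2 scale (SE 0.18, 1.54-fold lower; limma, adjusted p = 0.0167), and recurrences minus TI-KM primaries gave -0.38 ± 0.16 (limma, adjusted p = 0.329). The call was lost without recurrence 2, the lowest array (-0.48; limma, adjusted p = 0.0623), with the 3′ to 5′ ratio as a covariate (-0.49; adjusted p = 0.0934) and with arrays scaled to a common median (-0.72; adjusted p = 0.101). The sum of club and ciliated cell markers was higher in the recurrences, where Zw10 and Bub1b were lower, and its part in these differences was not tested.

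Zw10 moved with the sets of arrays. In recurrences, the 4 high-18S arrays had 484 to 808 and the 2 remaining ones 1054 and 1133, a difference of -0.66 (limma, adjusted p = 0.0392). In TI-KM primaries, the 6 high-18S arrays had 717 to 1148 and the 8 remaining ones 940 to 1447, a difference of -0.41 (limma, adjusted p = 0.0190). In this fit of group by set means, high-18S and remaining arrays differed in 18.8% of all genes within recurrences and in 42.6% within TI-KM primaries, and no other member was called in either. The blocked fit gave -0.20 for Zw10 in recurrences minus TI-K primaries (limma, adjusted p = 0.744), and within the remaining arrays it was -0.08. An interaction term in limma tested whether the recurrence difference from TI-KM primaries depended on the set, and it called 0 of 10 members and 0.0137% of all genes. Within TI-K primaries, the 5 arrays with high title numbers differed from the other 3 in 0 members and in 7.69% of all genes.

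Cdc20, the activator of the anaphase-promoting complex and the checkpoint's target (chromosome 4, 118432901 to 118437343), had signals of 977 to 3456 in recurrences (median 1167), 774 to 2747 in TI-KM primaries (1281) and 1033 to 4092 in TI-K primaries (1411). The normal lung had 311, below every tumour by this probe set, 1439377_x_at. Cdc20 was the member called higher than the normal lung in all 3 tumour groups: 2.15 ± 0.60 in recurrences, 2.00 ± 0.58 in TI-KM primaries and 2.39 ± 0.59 in TI-K primaries (limma, adjusted p = 0.0161, 0.0170 and 0.0057). The 3 values share the same single normal array and are of 1439377_x_at. For 1416664_at of Cdc20, medians were 411 in recurrences, 336 in TI-KM primaries and 462 in TI-K primaries. Its lowest TI-KM primary, at 205, lay below the normal lung. For 1439394_x_at the lowest TI-KM primary had 5.12 and the normal lung 5.37, under the offset of 20. All recurrences and TI-K primaries lay above the normal lung with both of these probe sets. Between tumour groups its differences were 0.16, -0.39 and -0.23 for recurrences minus TI-KM primaries, TI-KM minus TI-K primaries and recurrences minus TI-K primaries, none of them called.

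The members that take the inhibitor apart were Trip13, an ATPase that reopens Mad2 (chromosome 13), and Mad2l1bp, the adaptor p31comet that presents Mad2 to it (chromosome 17). Trip13 had signals of 132 to 968 in recurrences (median 292), 202 to 543 in TI-KM primaries (305), 276 to 847 in TI-K primaries (336) and 109 in the normal lung. Mad2l1bp had 335 to 689 in recurrences (median 504), 365 to 667 in TI-KM primaries (476), 415 to 687 in TI-K primaries (519) and 301 in the normal lung. All tumours lay above the normal array in both genes, but neither passed the test over all arrays. TI-K primaries minus the normal lung gave 1.69 ± 0.59 for Trip13 (limma, adjusted p = 0.0528) and 0.78 ± 0.31 for Mad2l1bp (limma, adjusted p = 0.0937).

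Counted as a list, 0 of the 10 members were called between recurrences and TI-KM primaries, where 0.26% of all genes were called, and their median log2 change was 0.04 as for all genes (0.04). The lowest adjusted p by limma among them was 0.329 (Zw10), and 1 member, Zw10, had an unadjusted p under 0.05, as 12.4% of all genes did. Between TI-KM and TI-K primaries 0 of 10 were called by limma against 7.99% of all genes, and 1 member, Bub1b, had an unadjusted p under 0.05, as 27.8% of all genes did. All 10 values were negative, with a median of -0.31 against 0.08 for all genes. Between recurrences and TI-K primaries 2 of 10 were called, both lower, where 18.8% of genes were called either way and 6.64% lower. Again all 10 values were negative (median -0.23 against 0.11), and these 2 comparisons share the 8 TI-K primaries. With the sets as a block the medians were 0.09, -0.20 and -0.15 for the 3 comparisons in the same order, 7 and 6 of the last pair were negative, and 0 of 10 members were called in each (limma; 0.699%, 0% and 0.0959% of all genes), with 1 unadjusted p under 0.05 among the members, that of Zw10 between recurrences and TI-KM primaries (0.0487). Of all genes, 15%, 4.86% and 11.1% had an unadjusted p under 0.05 with the block, in the same order of comparisons. For TI-KM minus TI-K primaries with the block, limma called 0 genes of 14602, and 709 had an unadjusted p under 0.05. Within the remaining arrays 0 members were called in the 3 comparisons (0.0822%, 0% and 0.13% of all genes), and 0 within the high-18S arrays between recurrences and TI-KM primaries (0.00685%). No member separated any tumour group from another without overlap, as 0.0479%, 0.0753% and 2.54% of all genes did.

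Against the single normal lung, 1 of 10 members was called in recurrences (Cdc20), 2 in TI-KM primaries (Bub1b and Cdc20) and 3 in TI-K primaries (Bub1, Bub1b and Cdc20), all higher. Of all genes 12.6%, 14.9% and 13.5% were called, and 6.46%, 7.75% and 6.74% were called higher. Median log2 changes of the 10 members were 0.97, 1.03 and 1.29, against 0.14, 0.10 and 0.00 for all genes. In 6 members all recurrences lay above the normal array, in 6 all TI-KM primaries did and in 9 all TI-K primaries did (all but Bub3), where 45.5%, 36.8% and 53.9% of all genes lay wholly above or below it. With the remaining arrays alone 4, 4 and 5 members were called higher, against 11.1%, 14.1% and 12.7% of genes. Bub1, Bub1b, Cdc20 and Trip13 were called in all 3 groups and Mad2l1 was added in TI-K primaries. With the high-18S arrays alone 0 members were called in recurrences and 0 in TI-KM primaries by limma, against 11.8% and 15.1% of genes. The smallest adjusted p among members was then 0.0673 and 0.0814, both for Cdc20. The fat marker genes, 2 of 5 measured, were lower in all tumour groups than in the normal lung, with a median log2 change of -4.86 in recurrences, -5.66 in TI-KM primaries and -6.39 in TI-K primaries, and the part of the tissue's make-up in the checkpoint differences was not tested.

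**Figure D2:**
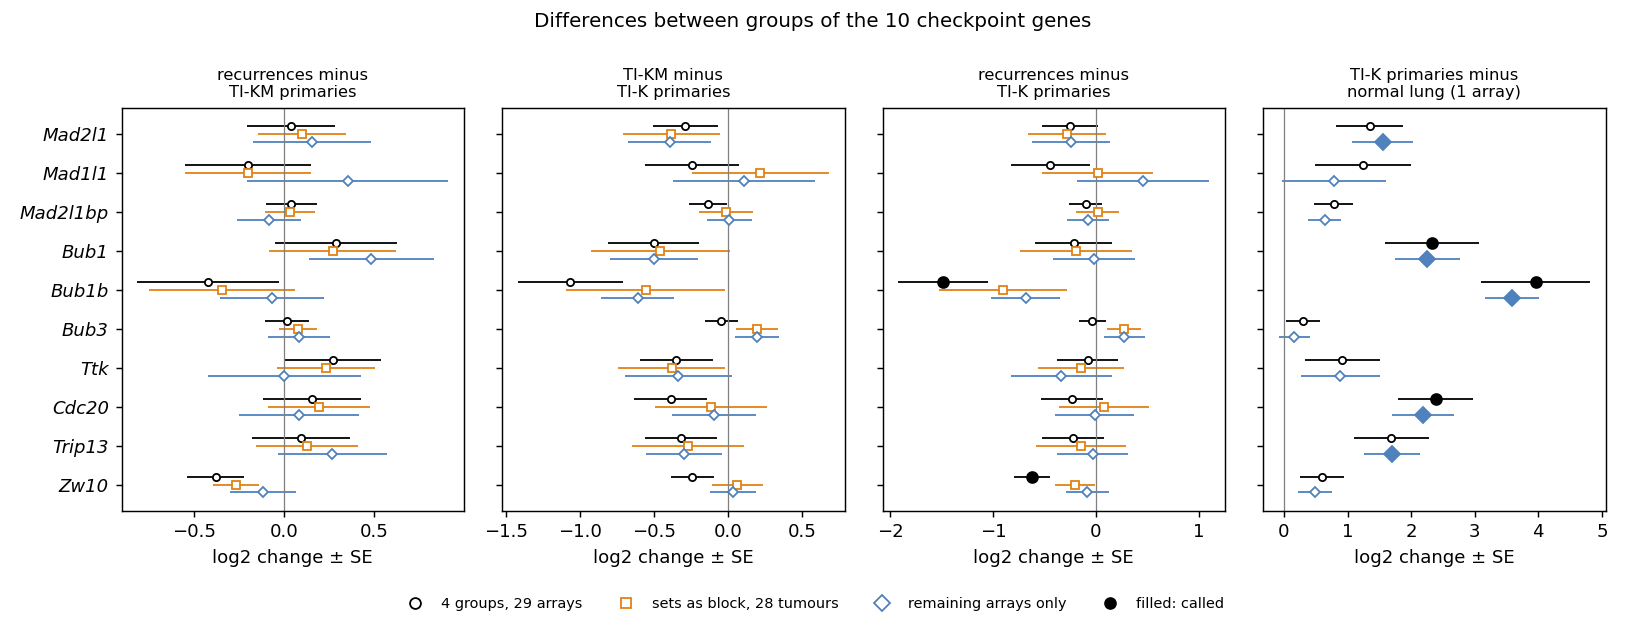
Log2 change with its SE (horizontal axis) for each of the 10 genes in 4 comparisons, from all 29 arrays, with the sets of arrays as a block, and from the remaining arrays only; filled markers passed the test. In recurrences minus TI-K primaries, the filled points are Bub1b at -1.49 and Zw10 at -0.62, and neither is filled with the block.

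Probe sets were also tested 1 by 1. Taken so, 4 of the 17 member probe sets were called lower in TI-KM than in TI-K primaries, where 15.8% of all probe sets were called either way and 8.33% lower. Among them were both probe sets of Bub1b that passed the filter (1416961_at at -0.86 and 1447363_s_at at -1.07, limma adjusted p = 0.0391 and 0.0397). The rest were 1459104_at of Bub3 (-0.72, limma adjusted p = 0.0420) and 1445206_at of Zw10 (-1.08, limma adjusted p = 0.0239). In recurrences against TI-K primaries the same 4 and the stronger Zw10 probe set 1424891_a_at were lower (26.9% of all probe sets called, 13.3% lower), with 1445206_at at -1.76 and 1459104_at at -1.04 (limma, adjusted p = 0.00175 and 0.0113). Between recurrences and TI-KM primaries 0 of the 17 were called by limma, against 0.442% of all. The blocked fit called none of the 17 in the 3 comparisons, against 1.79%, 0% and 0.197% of all probe sets for recurrences minus TI-KM primaries, TI-KM minus TI-K primaries and recurrences minus TI-K primaries.

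Probe sets of the same gene did not always go together. The Bub3 probe set 1416815_s_at, with signals of 4523 to 7513 in the tumours, gave -0.05 for TI-KM minus TI-K primaries and 1448473_at gave -0.01, against -0.72 for the weak 1459104_at, whose signal was 16.4 to 93.7 in recurrences, 23.0 to 155 in TI-KM primaries and 78.2 to 176 in TI-K primaries. Trip13 gave 0.09 with 1429294_at and -0.32 with 1429295_s_at. Against the normal lung, 2 of the 17 were called higher in recurrences, 4 in TI-KM primaries and 4 in TI-K primaries, where 9.34%, 10.3% and 9.06% of all probe sets were called and 4.66%, 5.31% and 4.49% called higher. Among them 1429294_at of Trip13 was higher in recurrences (1.55) and in TI-KM primaries (1.47), where 1429295_s_at gave 1.46 and 1.37 without a call. The 9 member probe sets that did not pass the filter belonged to Mad1l1, Bub1, Bub1b, Bub3 (2), Ttk, Trip13 and Zw10 (2), and each of these genes had another probe set that passed.

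**Figure D3:**
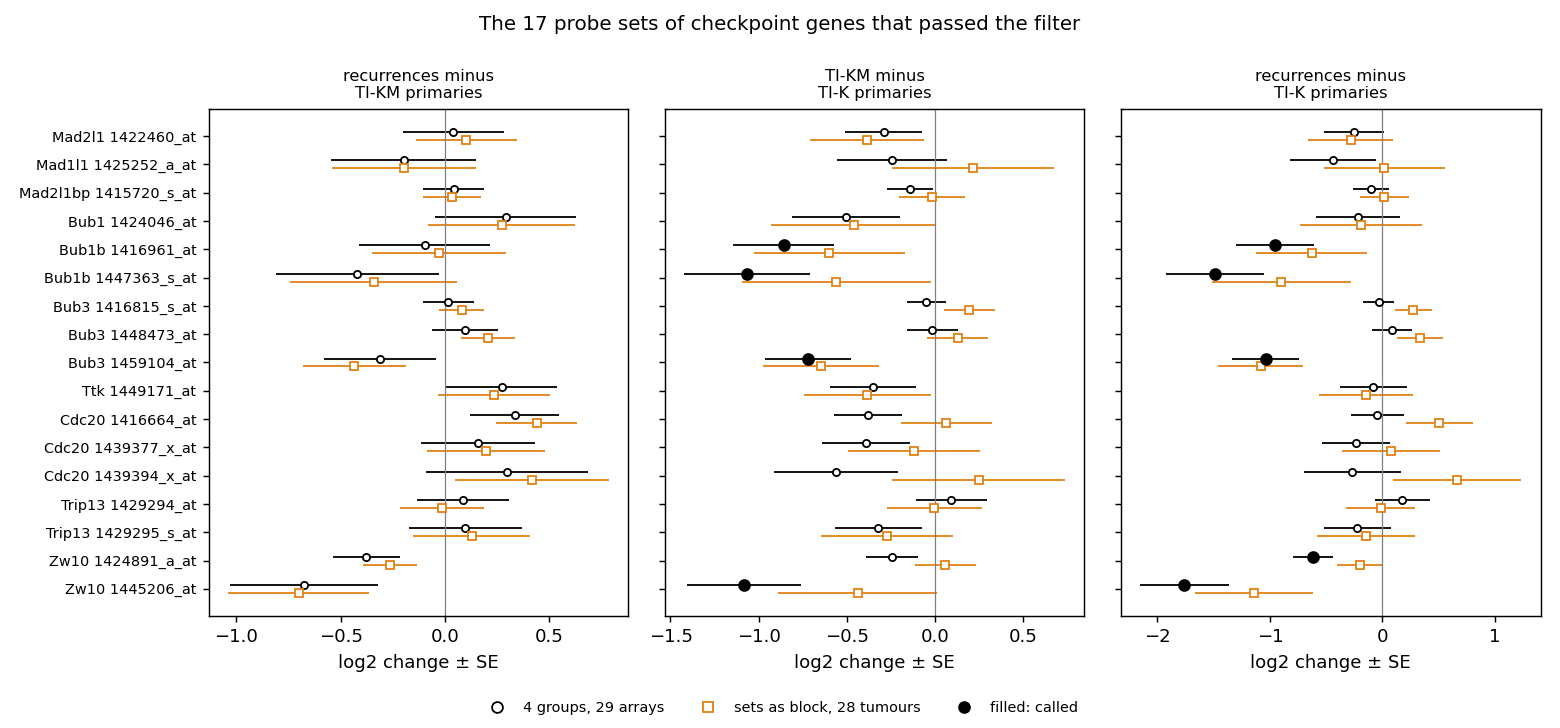
Log2 change with its SE (horizontal axis) for the 17 member probe sets that passed the filter in the 3 comparisons of tumour groups, from all 29 arrays and with the sets of arrays as a block over the 28 tumours; filled markers passed the test. Both of the Bub1b probe sets shown are filled for TI-KM minus TI-K primaries, at -0.86 and -1.07, and the 3 Bub3 probe sets shown range from -0.72 to -0.01.

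Recurrence 1 stood apart from the other recurrences. It had the highest signal of the 6 recurrences in 8 of the 10 members (all but Mad1l1 and Zw10), and recurrence 3 had the lowest in 5. Among TI-K primaries, replicate 5 was highest in 7 of 10. The mean z-score of 20 replication genes, none of them a member, was 2.31 in recurrence 1, -1.58 in recurrence 3, 1.27 in recurrence 5 and 1.13 in TI-K primary 5. These genes include Mki67, Top2a, Ccne1, Ccne2 and Rrm2, so this replication score may follow proliferation more widely than DNA replication alone. Recurrence 1 also had the highest summed leukocyte marker signal, 52488 against 9326 to 19996 in the other 5 recurrences, and it was the highest recurrence in 10 of the 13 leukocyte markers measured. Ms4a1, the B cell antigen CD20, was 10963 there and 104 to 985 in the other recurrences, and Ptprc, the pan-leukocyte antigen CD45, was 17743 against 700 to 5614. Its summed lung epithelial signal was the lowest of the recurrences, 75147 against 118891 to 142446. The correlations of the members that follow are therefore given with and without it.

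Across the 28 tumours, Mad2l1 varied together with Trip13, Bub1, Cdc20 and Ttk. For this, the mean of each tumour group within each set of arrays was removed from every gene, and Mad2l1 was set against each of the 9 other members. Permutation p here and below are not adjusted for the 9 partners unless stated. Pearson's r was 0.83 for Trip13, 0.81 for Bub1, 0.75 for Cdc20 and 0.67 for Ttk, with permutation p of 1.1e-04, 2e-05, 2.6e-04 and 0.00166 (100000 permutations within group and set, 2-sided). Spearman's rho was 0.75, 0.79, 0.69 and 0.56 in the same order, with permutation p of 1.6e-04, 1e-05, 4.7e-04 and 0.00727, of which 1e-05 is the smallest these permutations can give. In a limma fit with Mad2l1 as a covariate over all 14601 other genes, 5.57% were called and 3.31% called with a positive slope. Of the 9 members 4 were called, all positive: Trip13, Bub1, Cdc20 and Ttk (limma, adjusted p = 5.46e-04, 6.23e-04, 0.00286 and 0.0190).

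The other members followed Mad2l1 less closely. Bub3 had an r of 0.53 (permutation p = 0.0241; limma, adjusted p = 0.123), Bub1b 0.42 (permutation p = 0.319) and Mad2l1bp 0.41 (permutation p = 0.126). Zw10 had 0.04 and Mad1l1 0.00, with permutation p of 0.888 and 0.998. Spearman's rho was 0.46 for Bub3, 0.00 for Bub1b, 0.32 for Mad2l1bp, -0.04 for Zw10 and 0.04 for Mad1l1. For Bub1b the value rested on recurrence 1, and without it r was -0.08.

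**Figure D4:**
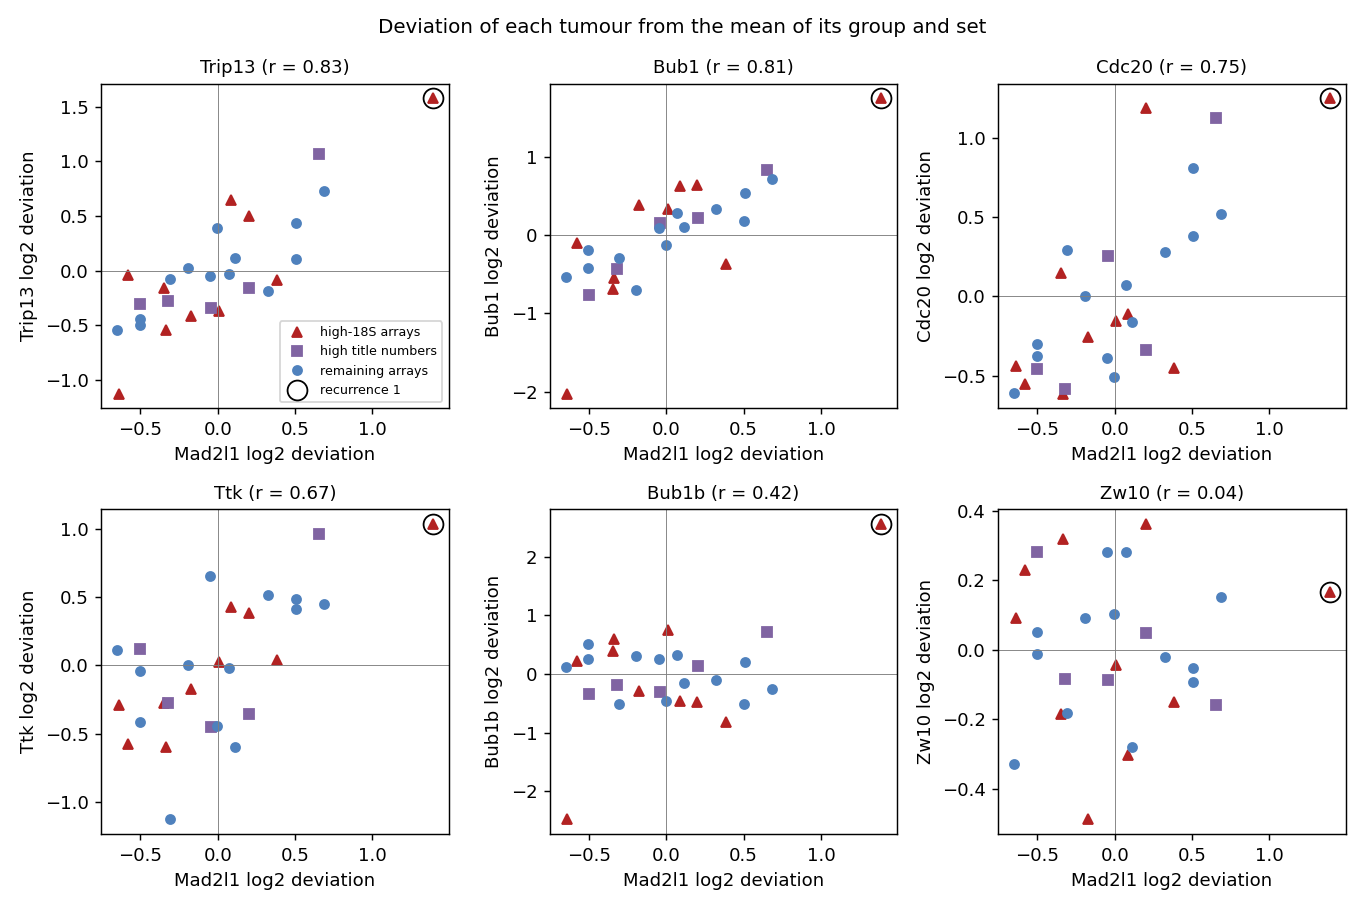
Each point is a tumour, with the deviation of its log2 signal from the mean of its group and set for Mad2l1 (horizontal) and for 6 partners (vertical); recurrence 1 is ringed and marker shapes give the sets. Trip13 and Bub1 climb with Mad2l1 at r of 0.83 and 0.81, and Zw10 does not, at 0.04.

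The relation was also computed within the sets, and differences of r between them were not tested. In the 13 remaining tumours r was 0.82 for Trip13, 0.87 for Bub1 and 0.77 for Cdc20 (permutation p = 0.00752, 2.3e-04 and 0.0121), and in the 10 high-18S tumours it was 0.85, 0.78 and 0.72 (permutation p = 0.0333, 0.0664 and 0.0768). Ttk had 0.50 in the remaining and 0.90 in the high-18S tumours (permutation p = 0.113 and 0.00670). Bub3 and Bub1b did not keep their values, with r of 0.07 and -0.40 in the remaining tumours and 0.95 and 0.62 in the high-18S tumours. Permutation p for Bub3 was 0.824 in the remaining and 0.00122 in the high-18S tumours (adjusted 0.0110 in the latter). For Bub1b permutation p was 0.324 and 0.351. Without TI-KM primaries 8 and 11, the farthest from the median of Mad2l1 among the remaining tumours, r was 0.69 for Trip13, 0.79 for Bub1 and 0.66 for Cdc20. Without recurrences 1 and 3, the farthest among the high-18S tumours, it was 0.36, 0.57 and 0.26, with 0.77 for Ttk, 0.89 for Bub3 and -0.82 for Bub1b. Leaving out the extremes of Mad2l1 narrows its range, and the part of this in the values of r was not tested. The 5 TI-K primaries with high title numbers are too few for a correlation of their own.

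Leaving out recurrence 1 and TI-KM primary 8, the tumours farthest from the median of Mad2l1, gave r of 0.66 for Trip13, 0.68 for Bub1, 0.62 for Cdc20 and 0.52 for Ttk. Without recurrence 1 alone the values were 0.71, 0.70, 0.64 and 0.55, and none of the 4 passed the limma test (adjusted p = 0.104, 0.104, 0.179 and 0.423). That test then called 4 of all genes, against 814 with recurrence 1. The summed leukocyte signal (log2, same means removed) correlated with Mad2l1 at r of 0.43 over the 28 tumours and at -0.06 without recurrence 1, and with Trip13 at 0.56 and 0.20. It correlated with Bub1 at 0.62 and, without recurrence 1, at 0.37, and with Bub1b at 0.79 and 0.57. For Cdc20 the values were 0.39 and 0.06, and for Ttk 0.33 and 0.01. The summed lung epithelial signal correlated with Mad2l1 at -0.67, and at -0.40 without recurrence 1. The summed club and ciliated cell signal correlated with Mad2l1 at 0.52, and at 0.56 without recurrence 1, and with Trip13 at 0.38 and 0.36. The summed stroma and endothelium signal correlated with Mad2l1 at 0.40 and 0.28, and with Trip13 at 0.54 and 0.47. The part of these cell types in the relation of Mad2l1 to its partners was not tested.

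The replication score correlated with Mad2l1 at r of 0.87, with Trip13 at 0.90, with Bub1 at 0.86, with Cdc20 at 0.75, with Ttk at 0.64 and with Bub1b at 0.62, and with Zw10 at 0.01 and Mad1l1 at -0.03. Without recurrence 1 these were 0.77, 0.82, 0.79, 0.64, 0.51, 0.24, -0.16 and 0.18 in the same order. Bub1b went with the score at 0.77 in the high-18S tumours and at -0.43 in the remaining ones. Bub1 had 0.94 and 0.55 and Ttk 0.87 and 0.37 in these sets, while Mad2l1 had 0.89 and 0.85. With the score regressed out of both genes, the r of Mad2l1 with Trip13 was 0.19, with Bub1 0.22, with Cdc20 0.29 and with Ttk 0.29, and Mad2l1bp had the highest value, 0.34. Without recurrence 1 these were 0.19, 0.24, 0.30, 0.29 and 0.32, and Bub1b had -0.31 with it and -0.43 without it. With recurrence 1, none of the 9 had a permutation p under 0.05, and their lowest was 0.122. These correlations share the same arrays and are descriptions over 28 points.

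Of the 45 pairs of members, the 15 pairs among Mad2l1, Bub1, Bub1b, Cdc20, Trip13 and Ttk had a median r of 0.62, from 0.34 to 0.83. The 17 pairs that include Zw10 or Mad1l1 had a median of 0.00, from -0.31 to 0.19. Trip13 and Bub1 reached 0.80 with each other and Bub1 and Bub1b 0.62, while Mad2l1bp had 0.06 with Cdc20. Without recurrence 1 the 15 pairs had a median of 0.46, from -0.08 to 0.71. The 10 of them without Bub1b then had a median of 0.58, from 0.42 to 0.71, and the 5 with Bub1b 0.04, from -0.08 to 0.38. The 17 pairs with Zw10 or Mad1l1 had -0.03, from -0.46 to 0.34. Mad1l1 signals lay near the offset of 20 in part of the arrays, which limits what its correlations can show, and those of Zw10 did not.

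**Figure D5:**
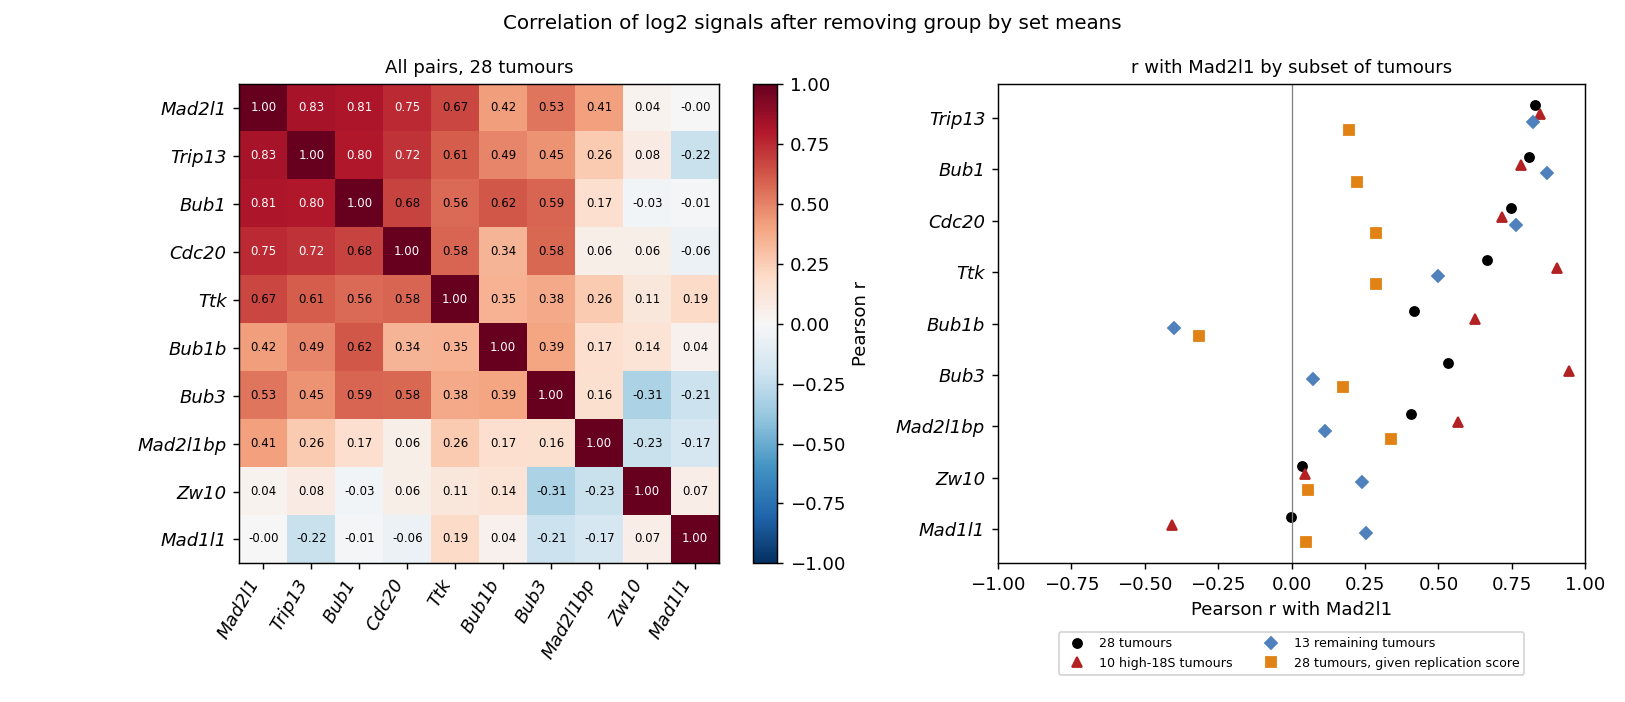
Left, Pearson's r between all pairs of the 10 genes over 28 tumours after group by set means were removed (colour scale and printed values). Right, r of Mad2l1 with each of 9 partners in all tumours, in the 10 high-18S and the 13 remaining tumours, and given the replication score; Trip13, at 0.83 over all tumours, is at 0.85, 0.82 and 0.19 in those.

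Ranked by r with Mad2l1 among all 14601 other genes, Trip13 came 10th and Bub1 23rd. Cdc20 was at rank 63, Ttk at 175, Bub3 at 742, Bub1b at 1614, Mad2l1bp at 1722, Zw10 at 7243 and Mad1l1 at 7838. Without recurrence 1 the ranks were 18 for Trip13, 20 for Bub1, 55 for Cdc20, 183 for Ttk, 1446 for Bub3, 2783 for Mad2l1bp, 3514 for Mad1l1, 9433 for Bub1b and 9887 for Zw10. Over all 28 tumours the 10 nearest genes were Cip2a (r 0.90), Fignl1 (0.86), Nusap1 (0.86), Smc2 (0.85), Rrm2 (0.84), Melk (0.84), Ndc80 (0.83), Nuf2 (0.83), Hmgb2 (0.83) and Trip13 (0.83). Cip2a inhibits the phosphatase PP2A, Nusap1 is a spindle protein, Smc2 a condensin subunit, Rrm2 a subunit of ribonucleotide reductase, and Ndc80 and Nuf2 are partners in the kinetochore complex that grips microtubules.

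The wider machinery around these genes was taken as 6 lists. None of their genes was called by limma between recurrences and TI-KM primaries, where 0.26% of all genes were called, so this 0 is near the background; 10 of their 107 genes had an unadjusted p under 0.05, as 12.4% of all genes did. Of all genes, 7.99% were called between TI-KM and TI-K primaries (5.5% higher, 2.49% lower) and 18.8% between recurrences and TI-K primaries (12.2% higher, 6.64% lower), and together the 6 lists had 7 and 10 of 107 genes called. Of 26 kinetochore genes, 1 was called higher in TI-KM than in TI-K primaries, the Mis12 complex subunit Nsl1 (0.90; limma, adjusted p = 0.0127). In recurrences against TI-K primaries 2 were higher and 2 lower, with Nsl1 at 1.30 and its partner Pmf1 at 1.12 (limma, adjusted p = 0.00195 and 0.0119). The median log2 change of that list was -0.27 in TI-KM primaries and -0.22 in recurrences, against 0.08 and 0.11 for all genes. Of 23 measured genes of the anaphase-promoting complex and its substrates, 2 fell and 1 rose in TI-KM relative to TI-K primaries, the 2 being the subunits Anapc10 (-0.75) and Anapc1 (-0.68; limma, adjusted p = 0.0136 and 0.0145). In recurrences 3 fell, among them Anapc10 (-0.85) and Cdc23 (-0.67; limma, adjusted p = 0.00942 and 0.0135), and the medians were -0.11 and -0.10.

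Of 12 mitotic kinase and passenger genes, Haspin, the kinase that marks histone H3 at centromeres, fell in TI-KM relative to TI-K primaries by 1.29 on the log2 scale (limma, adjusted p = 0.0135), and none passed the test in recurrences relative to TI-K primaries. Medians were -0.21 and -0.06. For this and the lists below, 7.99% of all genes were called in TI-KM relative to TI-K primaries. In recurrences relative to TI-K primaries 18.8% were called, 12.2% of all genes higher and 6.64% lower. A mixed list held checkpoint accessory genes and genes kept with HORMA-domain genes such as Mad2l2. Of its 10 measured genes, Rev1, a translesion polymerase, fell by 0.63 in TI-KM primaries and by 1.17 in recurrences (limma, adjusted p = 0.0421 and 0.00217). The list’s medians were -0.02 and 0.18. Of 20 replication genes none was called in TI-KM primaries and 2 rose in recurrences relative to TI-K primaries, the helicase subunits Mcm6 (0.85) and Mcm4 (0.74; limma, adjusted p = 0.0263 and 0.0492), with medians of -0.20 and 0.15. Of 16 E2F and MuvB regulators, Lin9, a subunit of the MuvB complex that binds CHR words, rose in TI-KM primaries (0.75; limma, adjusted p = 0.0285), with medians of 0.07 and 0.14. In the blocked fit 0 genes of these 6 lists were called by limma in the 3 comparisons of tumours, with 16, 6 and 6 of the 107 at an unadjusted p under 0.05 for recurrences minus TI-KM primaries, TI-KM minus TI-K primaries and recurrences minus TI-K primaries. Of all genes, 0.699%, 0% and 0.0959% were called in that order, and 15%, 4.86% and 11.1% had an unadjusted p under 0.05.

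In TI-K primaries against normal lung, 13.5% of all genes were called and 6.74% were called higher, and the counts below are to be read against these. TI-K primaries had 5 of 12 mitotic kinase and passenger genes higher than the normal lung and none lower, with a median log2 change of 1.57, among them survivin (Birc5, 2.68) and Cdk1 (2.69; limma, adjusted p = 0.00370 and 0.0118). Of the 26 kinetochore genes 4 were higher, with Nuf2 at 2.31 and Spc25 at 1.69 (limma, adjusted p = 0.0285 and 0.0118), and the median was 0.59. Of 20 replication genes 3 were higher (Cdt1 at 1.77 and Mcm6 at 2.22; limma, adjusted p = 0.00109 and 0.00344), with a median of 1.17. Of 23 genes of the anaphase-promoting complex and its substrates 3 were higher and 1 lower, with cyclin A2 (Ccna2) at 1.68 and the subunit Anapc13 at -1.37, and of the 16 E2F and MuvB regulators 2 were higher and 1 lower, with Rbl1 at 1.31 and Rb1 at -1.21. The 10 genes of the mixed accessory and HORMA-domain list had 1 higher, the nucleoporin Nup98 at 1.18.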

How the data were processed

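Affymetrix arrays were hybridized with total RNA of 28 tumours and 1 normal lung after a 2-cycle target preparation, per the labels. The deposited values are intensities on a linear scale, made with MAS5 per the submitters' processing notes (version not given in the sources used here). The 2% trimmed mean was 500.003 in every array, and arrays have no read depth, so their number limits the precision. The median signal of an array still differed between the sets. It was 122 to 170 in the high-18S arrays, 103 to 111 in those with high title numbers and 69.9 to 102 in the remaining ones. The normal lung had 111. The part of this in the differences between groups and sets was not tested. Of 45101 probe sets, 34945 named 1 gene in the platform annotation and 34741 matched the RefSeq gene table of GRCm38.p6.

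Before the log2, 20 was added to each value (the 20th percentile was 19.7), so fold changes of weak genes are understated. Probe sets above the 40th percentile of their own array in at least 6 arrays were kept, and the one with the highest mean stood for each gene. Groups were compared with limma 3.58.1 (R 4.3.3; lmFit, contrasts.fit and eBayes with trend) over all 14602 genes and 4 groups, with Benjamini-Hochberg adjustment over all genes. A gene is called at an adjusted p below 0.05. Sets of arrays were defined by an 18S signal above 12000 and TI-K title numbers above 5000. Correlations and figures used Python 3.11.15 with numpy 2.4.6, scipy 1.17.1, pandas 2.3.3 and matplotlib 3.10.9. The highest correlation between arrays was 0.981, and none were identical.

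All 10 members, the 10 genes most like Mad2l1 and, per list, the 2 genes of smallest p in each comparison are named, and leukocyte markers of recurrence 1 were chosen after their values were seen. The transgene that TI-K and TI-KM mice share is not reported here. The members and gene lists were chosen with earlier results of these data known. Alternatives were other scalings, offsets and probe sets, fits of 2 groups or with a covariate, single sets of arrays, and leaving out each array. On simulated data with 14602 genes the fit recovered 70 of 100 genes changed 2-fold and 97 of 100 changed 4-fold between TI-KM and TI-K primaries. For recurrences against TI-KM primaries it recovered 63 and 96, for recurrences against TI-K primaries 46 and 95, and for TI-K primaries against the normal lung 10 and 47. In the covariate fit 154 of 200 genes made to follow Mad2l1 were recovered.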

Additional observations from a re-analysis of the deposited data

How the results depend on the processing

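No paired analysis was possible because the replicate numbers were given in accession order and do not pair samples across groups. With 1 normal array and unequal sets of arrays, differences from the normal lung and from TI-K primaries rest on few samples, and weak signals near the offset (Mad1l1, Bub1, Bub1b and Ttk in some arrays) are the least certain. With 1 array left out at a time the number of members called was 0 throughout for recurrences minus TI-KM primaries, 0 to 1 for TI-KM minus TI-K primaries (1, Bub1b, without recurrence 1, recurrence 3 or TI-K primary 6), and 0 to 2 for recurrences minus TI-K primaries (0 without recurrence 2, 1 without recurrence 3). For TI-KM minus TI-K primaries, limma then called 1392, 1298 and 1590 of all genes in the fits just named, against 1166 with all 29 arrays. For recurrences minus TI-K primaries it called 1607 and 1690, against 2745. Against the normal lung the number of members called was 1 to 4 for recurrences (4 without recurrence 3, with 1716 of all genes), 2 to 3 for TI-KM primaries and 3 to 5 for TI-K primaries (5 without recurrence 1, with 2199 of all genes). Members called in recurrences minus TI-K primaries numbered 1 when arrays were scaled to a common median and with the 3′ to 5′ ratio as a covariate (Bub1b, Zw10 being lost), and 1 without probe sets marked _x_at or _s_at and with these 2 groups alone (Zw10, Bub1b being lost), and 0 with the sets as a block and with the remaining arrays only. In the order of these settings, 2314, 1543, 2617, 2810, 14 and 19 of all genes were called. For TI-KM minus TI-K primaries the number of members was 1 at an offset of 100, 3 with the probe set of largest SD and 1 with 2 groups alone. There 1008, 2119 and 1611 of all genes were called. For recurrences against the normal lung the number of members was 3 at an offset of 5, 0 with the largest SD, 0 with 2 groups alone, 4 with the remaining arrays and 0 with the high-18S arrays. Of all genes, 1859, 1402, 390, 2932 and 1727 were called in that order, against 1833 with all 29 arrays. For TI-KM primaries against the normal lung the number of members was 1 at an offset of 100, 1 with the largest SD, 4 with 2 groups alone, 4 with the remaining arrays and 0 with the high-18S arrays, and for TI-K primaries 5 with 2 groups alone and 5 with the remaining arrays. Of all genes, 2172, 1595, 2137, 3839 and 2210 were called for TI-KM primaries, against 2177 with all 29 arrays. For TI-K primaries 3108 and 3483 were called, against 1976. The cause of these shifts was not tested.

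Signs turned in values that had not passed the test. In recurrences minus TI-KM primaries, a common median gave -0.018 for Mad2l1, -0.017 for Mad2l1bp and -0.043 for Bub3. In that comparison the largest SD gave -0.31 for Bub3, the remaining arrays 0.36 for Mad1l1 and -0.081 for Mad2l1bp, and the 3′ to 5′ ratio -0.088 for Mad2l1bp. In TI-KM minus TI-K primaries, Trip13 was 0.092 without _x_at and _s_at probe sets; with the block Mad1l1 was 0.22, Bub3 0.20 and Zw10 0.060; in the remaining arrays Mad1l1 was 0.10, Mad2l1bp 0.0059, Bub3 0.19 and Zw10 0.031. In recurrences minus TI-K primaries, leaving out _x_at and _s_at probe sets gave 0.082 for Bub3 and 0.18 for Trip13, and the ratio gave 0.026 for Cdc20. The block gave 0.018 for Mad1l1, 0.016 for Mad2l1bp, 0.27 for Bub3 and 0.076 for Cdc20 there, and the remaining arrays 0.46 for Mad1l1 and 0.28 for Bub3. Leaving out 1 array turned signs in recurrences minus TI-KM primaries for Mad2l1 (-0.22 to 0.19), Mad2l1bp (-0.051 to 0.15), Bub1 (-0.048 to 0.71), Bub1b (-0.89 to 0.12), Bub3 (-0.047 to 0.087), Cdc20 (-0.090 to 0.27) and Trip13 (-0.20 to 0.34). It did so in recurrences minus TI-K primaries for Bub1 (-0.55 to 0.20), Bub3 (-0.095 to 0.038), Mad2l1bp (-0.19 to 0.0081), Trip13 (-0.52 to 0.022) and Ttk (-0.32 to 0.060).

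The r of Mad2l1 with a partner, with 1 array left out at a time, was 0.71 to 0.85 for Trip13, 0.70 to 0.85 for Bub1, 0.64 to 0.80 for Cdc20, 0.55 to 0.71 for Ttk, 0.33 to 0.62 for Bub3, 0.23 to 0.47 for Mad2l1bp, -0.08 to 0.50 for Bub1b, -0.10 to 0.11 for Zw10 and -0.13 to 0.19 for Mad1l1. For Trip13, Bub1, Cdc20, Ttk, Bub1b, Bub3, Mad2l1bp and Zw10 the lowest value, and for Mad1l1 the highest, was without recurrence 1. Mad1l1 had 0.14 with a common median, 0.052 at an offset of 100 and 0.0078 with no means removed, Zw10 had -0.50 with the probe set of largest SD, and Ttk had 0.59 with group means only and 0.61 with no means removed, no longer called (limma, adjusted p = 0.0874 and 0.0736). Leaving out recurrence 1 in the other correlations was also chosen after seeing the data, as was an alternative that left out recurrence 1 and TI-K primary 5 together. The last gave 0.64 for Trip13, 0.66 for Bub1, 0.56 for Cdc20 and 0.45 for Ttk, none called (limma, adjusted p from 0.156 to 0.648), and 0.15 for Mad1l1, -0.21 for Bub1b and -0.04 for Zw10.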
